A study of Mus musculus with 9 samples.

Results

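Endothelial cells (ECs) sorted from lungs with breast cancer metastases, taken from mice treated with the VEGFR2-blocking antibody DC101, were compared with ECs sorted from lungs without metastases. The comparison consisted of the 3 DC101-treated metastatic arrays and the 3 healthy arrays, 6 of the 9 arrays in the series. It covered each of the 18193 genes that a probe set with a single gene symbol could name, and where a gene had several probe sets, the one with the highest mean across all arrays was taken. Every animal was an NSG mouse, a strain without T, B and NK cells, and per the study's methods NSG mice were female. Metastatic mice were 6 to 8 weeks old when MDA-MB-231-LM2, a human breast cancer line derived to colonise the lung, was given through the tail vein. They received DC101 at 40 mg/kg into the peritoneum on day 21 and day 24, and the lungs were collected on day 25. Healthy mice were of matching age, received rat IgG in place of DC101 and were given no cancer cells, so tumour and antibody differ together in this comparison. The remaining 3 arrays, from metastatic mice given rat IgG at the same days, separate the antibody from the tumour and are given beside the results. Whole lungs were sorted for CD31 in the absence of CD45, CD11b, EpCAM, CD140a/b and GFP, so ECs near to and far from metastases were pooled in every array. The labels call the arrays biological replicates without tying each to a separate mouse, so p-values measure the spread between these samples.

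VEGFR2, the product of Kdr, is the main receptor through which VEGF-A drives endothelial division, sprouting and survival. Its activation feeds ERK and AKT signalling, and sprouts are led by tip cells that remodel the basement membrane while the cells behind them divide. Activated endothelium also answers interferons and inflammatory cytokines with its own gene programmes. These start at the receptors of those cytokines and use transcription factors of the STAT, IRF and NF-kB families. In the lung, capillary ECs make up most of the endothelium, with aerocytes at the gas-exchange surface and general capillary cells beside them.

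Values are RMA values on the log2 scale, and a gene was called when limma gave an adjusted p under 0.05 over all 18193 genes. The sorted cells carried endothelial transcripts at similar levels in all groups. Pecam1, the sorting antigen CD31, stood at 14.10, 14.12 and 14.14 in the healthy arrays and at 14.21, 14.06 and 14.20 with DC101. Cdh5, the junctional cadherin of endothelium, stood at 14.03, 14 and 14.06 in healthy arrays and at 14.05, 13.99 and 14.18 with DC101. None of the 22 pan-endothelial genes was called by limma (4 at an unadjusted p under 0.05), and their median change was -0.11. Arrays of a group correlated with r between 0.983 and 0.991. The DC101 arrays were the most spread group, with a median SD per gene of 0.171 against 0.135 in healthy arrays, and DC101 replicates 3 and 1 lay apart on principal components 2 and 3. The Gapdh control differed less between its 3-prime and 5-prime probe sets in each DC101 array (0.35 to 0.60) than in each healthy array (0.69 to 0.77), and its part in the results was not tested.

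Under DC101 treatment, ECs of metastatic lungs still differed from healthy ECs in cell division, interferon response and matrix genes. By limma, 440 of 18193 genes (2.42%) were called, 288 higher (1.58%) and 152 lower (0.835%). The change exceeded 1 on the log2 scale for 191 of the higher and 40 of the lower genes. At an unadjusted p under 0.05 there were 3088 genes, and the median change over all genes was -0.04. The 3 DC101 arrays lay entirely above the 3 healthy arrays for 1717 genes and entirely below them for 2477 (23.1% together), a set that held all 440 called genes. That a called gene did not overlap is therefore no evidence beyond its call. At the looser thresholds that the study set for its own signatures (log2 change over 0.75, adjusted p under 0.25), taken in both directions, 655 genes passed, 451 of them higher. Metastatic ECs from IgG-treated mice, tested against the same 3 healthy arrays, gave 1188 calls (6.53%), 715 higher (3.93%) and 473 lower (2.6%). The direct test of DC101 against IgG in metastatic lungs gave 0 calls in limma (0% in either direction), with 1209 genes at an unadjusted p under 0.05 and a lowest adjusted p of 0.40. That test therefore separated no single gene between the antibodies after adjustment, which does not show that the groups were alike. The number of calls depended on single arrays: it was 214, 193 and 361 without DC101 replicate 1, 2 and 3, and 110, 174 and 158 without healthy replicate 1, 2 and 3.

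**Figure D1:**
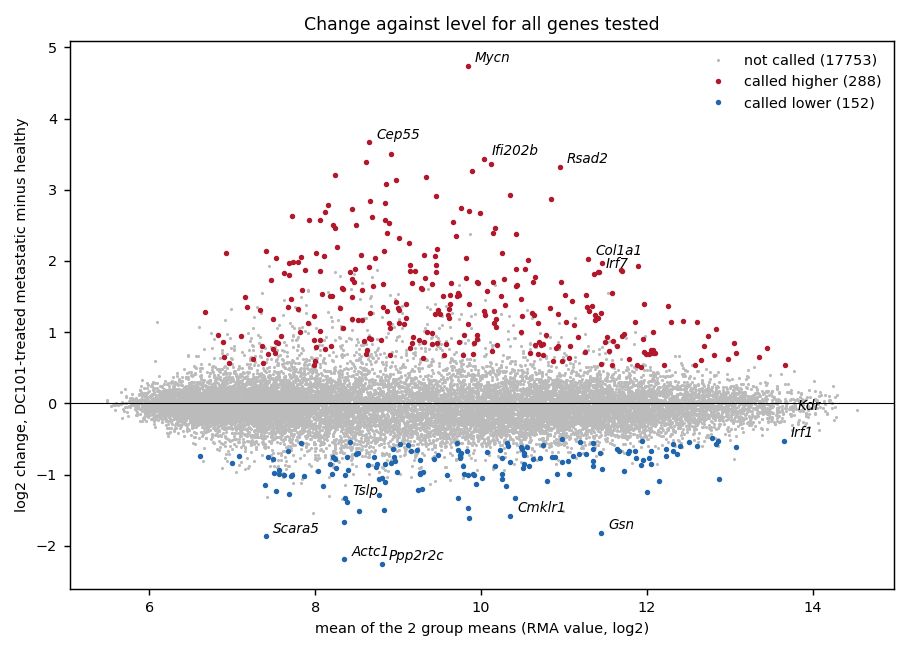
Change in DC101-treated metastatic ECs relative to healthy ECs (vertical axis, log2) against the mean of the group means (horizontal axis, RMA value on a log2 scale), with 1 point per gene and 3 arrays per group. Red points are the 288 genes called higher and blue points the 152 called lower, and the called increases reach further from 0 than the called decreases.

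Of the 440 genes, 95 were called whichever array was left out. Of the 129 genes that a stated rule selected for naming, 109 were called and 43 of these kept the call in all 6 such fits, while 66 lost it in at least 1. The 43 were, among cell cycle and growth genes, Mycn, Myc, Cep55, Cenpf, Nusap1, Mki67, Top2a, Anln, Prc1, Uhrf1 and E2f7. Among interferon and inflammatory genes they were Ifi202b, Rsad2, Mx1, Ifit2, Ifi27l2a, Irf7, Lrg1, Serpina3n and Ackr1. Among matrix, niche and vascular genes they were Inhbb, Lama1, Scgb3a1, Tgfbi, Timp1, Col15a1, Col1a1, Tnc, Fn1, Adamts4, Nrp2, Trp53i11 and Fscn1. The others were Clca3a1, Ildr2, Ankrd37, Ndrg1, Actc1, Gsn, Kif26b, Mettl7a1, Lrat and Spi1.

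The largest increase was that of Mycn, a growth-promoting MYC family factor, but it rested on 1 of the gene's 3 probe sets. The probe set 1425923_at, which represented Mycn by the rule, rose from 7.36, 7.55 and 7.496 in healthy arrays to 12.12, 12.15 and 12.37 with DC101, and it read 11.49, 11.80 and 11.95 with IgG. This is a change of 4.74 (SE 0.12, 26.8-fold, adjusted p = 1.12e-05), with no overlap between the groups. The probe set 1417155_at read 10.28, 10.15 and 9.88 in healthy arrays, 10.74, 10.77 and 11.07 with IgG and 9.08, 10.34 and 9.87 with DC101. On it, healthy and DC101 arrays overlapped and the change was -0.34 (SE 0.31, adjusted p = 0.67 over all probe sets). The probe set 1425922_a_at changed by 0.27 (SE 0.19, adjusted p = 0.57 over all probe sets). When each gene was represented by its probe set with the highest healthy mean, Mycn was not called and its change had the opposite sign (-0.34). Myc, the family's founding member, rose from 8.58, 8.54 and 8.30 to 9.79, 10.38 and 10.11 with DC101 (change 1.62, SE 0.17, adjusted p = 0.0055), and the IgG arrays stood at 10.57, 10.67 and 10.34. The list of MYC family and ribosome biogenesis genes, which MYC proteins are known to drive, held no further calls among its 25 measured members, and its median change was -0.03.

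**Figure D2:**
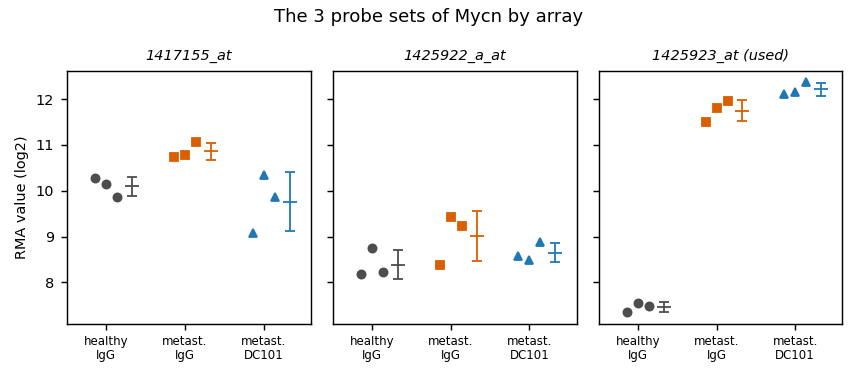
RMA values (log2, vertical axis) of the 3 probe sets of Mycn in healthy, IgG-treated metastatic and DC101-treated metastatic ECs, where symbols are single arrays and the dash with its bar is the group mean ± SD (n = 3). The probe set 1425923_at lies between 7.36 and 7.55 in healthy arrays and between 12.12 and 12.37 with DC101, while the healthy and DC101 arrays overlap on the other probe sets.

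Genes of mitosis had the highest median change of the gene lists examined. Cep55, which acts in the final separation of daughter cells, rose from 7.49, 6.02 and 6.93 in healthy arrays to 10.87, 10.75 and 9.83 with DC101 (change 3.67, SE 0.41, 12.7-fold, adjusted p = 0.0072). Cenpf, a kinetochore-associated protein, rose from 7.76, 7.002 and 6.71 to 11.27, 10.85 and 9.87 (3.50, SE 0.39, adjusted p = 0.0075). Mki67, which encodes the Ki-67 antigen of cycling cells, rose from 8.01, 8.63 and 8.68 to 12.13, 12.25 and 11.04 (3.37, SE 0.34, adjusted p = 0.0049). No DC101 array overlapped a healthy array for these genes, as for every called gene. The spindle protein gene Nusap1 rose by 3.40, Top2a, a topoisomerase of dividing cells, by 3.18, the cytokinesis genes Anln by 3.08 and Prc1 by 2.91, the spindle motor gene Kif11 by 2.79 and the mitotic kinase genes Cdk1 and Aurkb by 2.55 and 2.51. The call on Top2a came from 1 of its 3 probe sets, and the other two changed by -0.12 and 0.56 without passing. In all, 27 of 35 measured mitosis genes (77.1%) were called higher, against 1.58% of all genes, and 0 lower. Their median change was 2.39, against -0.04 over all genes. The count was 17 without DC101 replicate 2 and 16 without healthy replicate 1, and the median was 1.71 with the mean of a gene's probe sets. With IgG, 32 of the 35 were called against the same healthy arrays, at a median of 2.71. Set directly against IgG, the members had a median difference of -0.38 with DC101, 3 of the 35 differences were positive and 0 were called by limma.

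The mitosis genes also varied within the DC101 group. DC101 replicate 3 held the lowest value of its group for 33 of the 35 members, where it was the lowest for 7614 of all 18193 genes. The median member stood 2.65 and 2.48 above its healthy mean in DC101 replicates 1 and 2 and 1.72 above it in replicate 3. Among the IgG arrays, replicate 1 was the highest for all 35 members, at a median of 3.16 above the healthy mean. The summed level of the list, on a log2 scale, ranged from 13.03 to 13.36 in healthy, 15.30 to 16.24 in IgG and 14.78 to 15.77 in DC101 arrays. On this summed level the healthy arrays thus stood apart, and the metastatic groups overlapped.

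The mitosis genes share a promoter letter pattern that the choice of the list did not use. The cell cycle homology region was searched as TTTGAA on both strands in RefSeq promoters (GRCm38.p6), within 250 bases before and 50 bases after the start. It was present for 25 of the 31 list members with a tabulated promoter (80.6%). The share was 20.2% of 27025 genes and 15.7% of those measured here. Stretches of 90 bases upstream of the start are shown for the called members with the largest increases that hold it, with the matching letters in capitals. They lie at chr19:38054951-38055040 on the plus strand for Cep55, at chr7:135716430-135716519 on the minus strand for Mki67 and at chr11:99024190-99024279 on the minus strand for Top2a.
Cep55: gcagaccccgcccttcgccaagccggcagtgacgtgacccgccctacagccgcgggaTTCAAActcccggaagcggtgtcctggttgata
Mki67: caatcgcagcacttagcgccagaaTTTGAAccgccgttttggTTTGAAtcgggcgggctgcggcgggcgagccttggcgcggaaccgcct
Top2a: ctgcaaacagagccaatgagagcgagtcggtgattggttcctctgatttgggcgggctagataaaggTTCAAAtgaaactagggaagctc
Counted from the start, the nearest upstream match began at base -33 in Cep55, at base -98 in Mki67 and at base -23 in Top2a. A match describes the letters of the promoter and is no evidence of binding.

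DNA replication was examined in a list of its own. Of 36 measured members, 6 were called higher (16.7%, against 1.58% of all genes) and 0 lower, with a median change of 0.49. Uhrf1, which maintains DNA methylation at the replication fork, rose from 7.84, 8.03 and 7.68 to 10.16, 10.20 and 10.15 (change 2.32, SE 0.12, adjusted p = 0.00066). Rrm2, a subunit of ribonucleotide reductase, rose by 2.71, the polymerase epsilon gene Pole by 1.53 and Tk1, thymidine kinase, by 1.51. Mcm5 and Mcm2, subunits of the replicative helicase, had changes of 1.20 (SE 0.27, adjusted p = 0.076) and 0.83 (SE 0.23, adjusted p = 0.13), and Pcna, the sliding clamp, of 0.06 (SE 0.10). With IgG, 21 members were called and the median was 0.83. Of the 36 direct differences of DC101 from IgG, 3 were positive, and 0 members were called by limma. The DC101 count rested on single arrays: it was 12 without DC101 replicate 3 and 1 without any other single array of the comparison. E2F factors drive many of these genes. An E2F site (TTTCCCGC or TTTGGCGC on either strand) was found in 12 of 31 tabulated promoters of the list (38.7%). The share was 1.8% of all genes with a promoter and 2.77% of those measured here. Of the regulators themselves, the repressor-type factors E2f8 and E2f7 rose by 2.19 and 1.39 and Foxm1, a factor for mitotic genes, by 1.42, the only 3 called of 23 cyclin, inhibitor and E2F genes. Only 1 of these 3 was called without DC101 replicate 1 or 2 or healthy replicate 1. Foxm1 was not called on its probe set with the highest healthy mean (0.39, adjusted p = 0.35). The cyclin D1 gene Ccnd1 changed by 0.54 (SE 0.13, adjusted p = 0.101) and the inhibitor gene Cdkn1a by 0.05 (SE 0.14).

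Antiviral interferon genes formed the other large group of increases. Rsad2, the antiviral enzyme viperin, rose from 9.46, 9.55 and 8.86 in healthy arrays to 12.51, 12.80 and 12.51 with DC101 (change 3.32, SE 0.20, 10-fold, adjusted p = 0.00088), and the IgG arrays stood at 12.68, 12.83 and 13.03. Ifi202b, an interferon-inducible gene of a family of close copies that a probe set may not tell apart, rose from 8.44, 8.51 and 8.02 to 11.25, 12.24 and 11.79 (3.44, SE 0.26, adjusted p = 0.0017). Healthy and DC101 arrays did not overlap for either gene, as for every called gene. Irf7, the regulator that amplifies type I interferon responses, rose from 10.49, 10.59 and 10.40 to 12.23, 12.48 and 12.32 (1.85, SE 0.11, adjusted p = 0.00088). Irf1, which interferon gamma strongly induces, instead fell from 13.91, 13.87 and 13.95 to 13.36, 13.44 and 13.36 (-0.52, SE 0.10, adjusted p = 0.039), a call that was lost whichever array was left out (highest adjusted p = 0.14, without healthy replicate 1). The IgG arrays lay at 13.41, 13.48 and 13.40, beside those with DC101.

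Of 34 measured antiviral effectors, 20 were called higher (58.8%, against 1.58% of all genes) and 0 lower, with a median change of 0.92. The count fell to 11 without healthy replicate 1. Mx1, an antiviral GTPase, rose by 2.82, the RNA-binding factors Ifit2, Ifit3 and Ifit1 by 2.40, 1.93 and 1.55, Ifi27l2a by 2.26, the deubiquitinase gene of the pathway's feedback Usp18 by 1.89, the nucleic acid sensor Zbp1 by 1.84 and the synthetase genes Oas2 and Oas1a by 1.71 and 1.34. Among members that did not pass, Ifih1, an RNA sensor, changed by 0.35 (SE 0.16) and Bst2, which tethers virus particles, by 0.23 (SE 0.13). With IgG, 28 members were called at a median of 0.89. The direct difference between the antibodies had a median of -0.11 over the list, and for Rsad2 it was -0.24 (95% interval from -0.56 to 0.09). The list's median member stood 0.75, 0.87 and 0.98 above its healthy mean in the 3 DC101 arrays and 0.83, 0.91 and 0.98 above it in the 3 IgG arrays, so these medians overlapped between the metastatic groups. Within the DC101 group, replicate 2 was the highest for 28 of the 34 members and replicate 3 the lowest for 18, where they were so for 7219 and 7614 of all genes. Of 15 interferon-inducible GTPase and Ifi200 genes, only Ifi202b, Ifi204 (1.73) and Igtp (0.70) were called. Without any 1 of the healthy arrays a single call remained among them.

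The interferon-stimulated response element was searched as GAAANNGAAA on both strands. Of the 23 antiviral effectors with a tabulated promoter, 11 held it (47.8%), as did 3.99% of all 27025 genes and 3.63% of those measured here. The called effectors with the largest increases that hold it upstream of the start are shown with the matching letters in capitals. The stretches lie at chr12:26456523-26456612 on the minus strand for Rsad2 and, on the plus strand, at chr19:34583367-34583456 for Ifit3 and chr19:34640764-34640853 for Ifit1.
Rsad2: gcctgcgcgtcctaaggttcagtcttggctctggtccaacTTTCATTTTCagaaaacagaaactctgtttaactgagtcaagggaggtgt
Ifit3: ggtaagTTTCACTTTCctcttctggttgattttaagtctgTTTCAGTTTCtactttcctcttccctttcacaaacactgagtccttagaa
Ifit1: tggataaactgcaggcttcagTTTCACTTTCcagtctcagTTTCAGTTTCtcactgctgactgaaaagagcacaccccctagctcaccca
Ifit3 and Ifit1 each held 2 matches in the stretch and Rsad2 held 1, which began at base -120 from the start. As for the mitosis genes, a match is a description of letters.

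**Figure D3:**
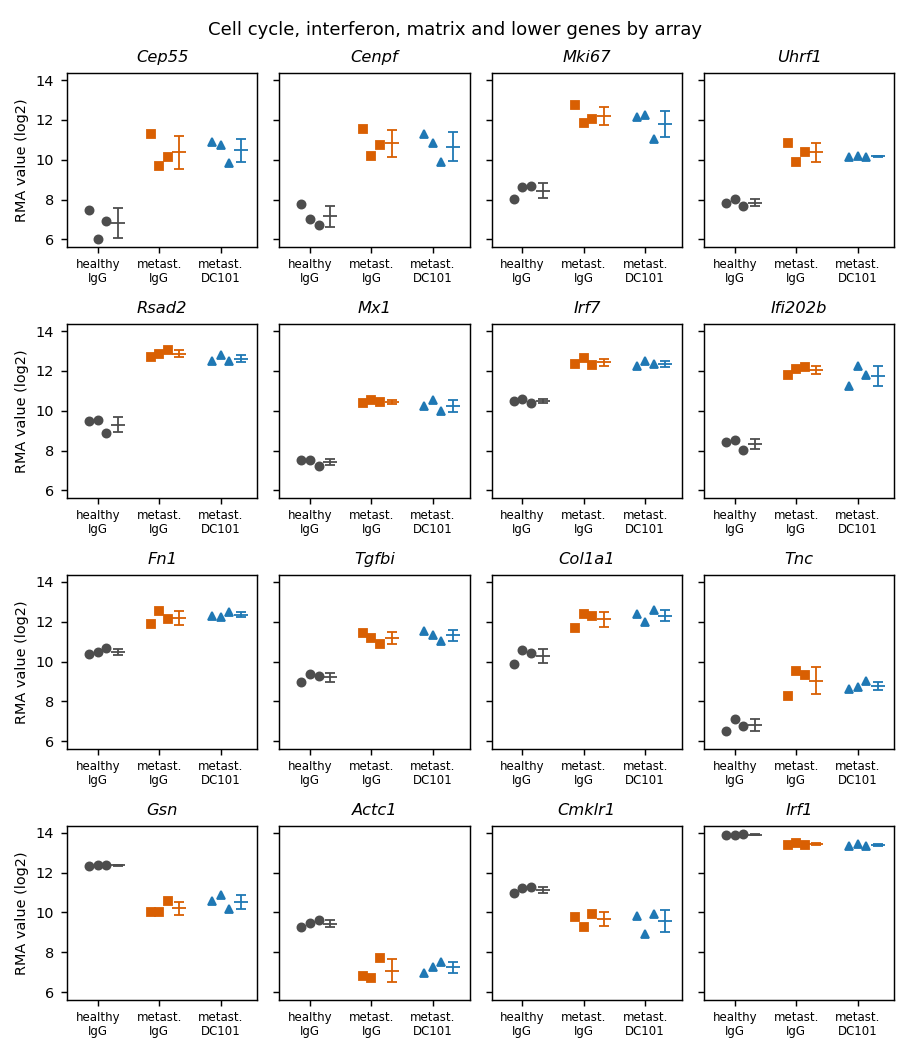
RMA values (log2, vertical axis) of 16 genes in healthy, IgG-treated metastatic and DC101-treated metastatic ECs, where symbols are single arrays and the dash with its bar is the group mean ± SD (n = 3). The healthy arrays lie below every DC101 array for the cell cycle, interferon and matrix genes (such as Rsad2, 8.86 to 9.55 against 12.51 to 12.80) and above every DC101 array for Gsn, Actc1, Cmklr1 and Irf1 in the bottom row.

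Some inflammatory genes outside the antiviral list changed as well. Lrg1, a secreted glycoprotein of inflamed endothelium, rose from 10.90, 10.69 and 10.65 to 12.74, 12.70 and 12.41 (change 1.87, SE 0.13, adjusted p = 0.0015). Cxcl10, an interferon-induced chemokine, rose from 8.77, 8.55 and 9.07 to 10.35, 11.44 and 10.75 (2.05, SE 0.27, adjusted p = 0.015), and Cxcl1, a neutrophil-attracting chemokine, by 0.87. Cx3cl1, the membrane-bound chemokine fractalkine, fell from 12.49, 12.45 and 12.52 to 11.63, 11.79 and 11.46 (-0.86, SE 0.12, adjusted p = 0.016). These were the 4 calls among 29 genes of NF-kB feedback and endothelial activation (13.8%, against 2.42% of all genes). Of the 29, 14 had an unadjusted p under 0.05, and the median change was 0.32. Only 1 call remained without healthy replicate 1 or 2. The adhesion receptor genes Icam1, Vcam1 and Sele had changes of -0.05 (SE 0.10), -0.14 (SE 0.20) and 1.27 (SE 0.39, adjusted p = 0.16). Serpina3n, an acute-phase protease inhibitor, rose from 8.19, 8.41 and 8.59 to 11.52, 10.75 and 11.13 (2.74, SE 0.21). In antigen presentation by class I molecules, Nlrc5, the transactivator of the class I genes, rose by 1.40 and the peptide transporter gene Tap1 by 0.54, while H2-K1 and B2m changed by 0.31 (SE 0.10) and 0.19 (SE 0.11) without passing. The class I list held 0 calls without healthy replicate 1 or 2 and 1 without each other array. None of 7 class II genes was called by limma, with 1 at an unadjusted p under 0.05.

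The niche factors that the study followed up were chosen by it as metastasis-induced endothelial genes, so their direction is no independent evidence. Inhbb, which encodes the beta subunit of activin B, rose from 10.38, 10.59 and 10.40 in healthy arrays to 12.14, 12.31 and 12.35 with DC101 (change 1.81, SE 0.11, 3.51-fold, adjusted p = 0.00093). Lama1, a laminin alpha chain, rose from 8.63, 8.62 and 9.10 to 10.15, 10.62 and 10.65 (1.69, SE 0.19, 3.23-fold, adjusted p = 0.0075). Scgb3a1, a secreted secretoglobin, rose from 8.75, 9.72 and 9.23 to 11.81, 11.87 and 11.15 (2.38, SE 0.28, 5.19-fold, adjusted p = 0.0096). For these genes every DC101 array lay above every healthy array, as for every gene called higher. Tnfrsf11b, the TRAIL and RANKL decoy receptor osteoprotegerin, stood at 10.05, 9.16 and 10.05 in healthy arrays and at 8.71, 10.25 and 11.58 with DC101. The DC101 arrays of this gene spanned the healthy range, one below it and the others above, and the change of 0.43 (SE 0.66, 95% interval from -1.11 to 1.97, adjusted p = 0.80) did not pass. Its IgG arrays stood at 10.73, 11.31 and 11.61, and the direct difference from IgG was -1.03 (95% interval from -2.54 to 0.47). For Inhbb, Scgb3a1 and Lama1 the direct differences were 0.09 (from -0.26 to 0.44), -0.02 (from -0.59 to 0.56) and -0.41 (from -0.88 to 0.05).

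GSP58 is the study's signature of secreted proteins selected on week 3 arrays of its own time course. Of its 53 measured genes, 22 were called higher (41.5%, against 1.58% of all genes) and 0 lower, at a median of 0.99. The count was 13 without healthy replicate 1. Besides Serpina3n, Scgb3a1 and Cxcl10, the increases included Prrg3, a transmembrane Gla protein (2.17), Tgfbi, a matrix adapter (2.11), C1qtnf1, a C1q-related secreted protein (2.06), Olr1, the receptor of oxidised LDL (1.99), Timp1, an inhibitor of matrix proteases (1.91), Pdgfc, a PDGF ligand (1.81), and the complement gene Cfb (1.64). With IgG, 38 members were called at a median of 1.49, and 11 of 53 differences between the antibodies were positive, with a median of -0.21 and 0 calls by limma. In the study's proliferation signature, 18 of 130 genes were called higher (13.85%), at a median of 0.33 (0.59 with IgG). In its inflammation signature 10 of 66 were called higher (15.15%), at a median of 0.16 (0.23 with IgG). Calls lower numbered 0 in both, and 1.58% of all genes were called higher. Of the differences between the antibodies, 11 of 130 were positive in the proliferation and 21 of 66 in the inflammation signature. Without DC101 replicate 1, 2 or 3 the proliferation count was 8, 6 or 35, and without healthy replicate 1, 2 or 3 it was 4, 10 or 6. The inflammation count was 6 without DC101 replicate 2, 5 without healthy replicate 1 and 6 without healthy replicate 2. Both signatures and GSP58 were selected by the study in the same model, and their direction is not independent evidence.

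Transcripts of the VEGF receptors were close to healthy levels. Kdr, the gene of the receptor that DC101 binds, stood at 13.87, 13.75 and 13.78 in healthy arrays and at 13.43, 13.62 and 13.92 with DC101 (change -0.15, 95% interval from -0.48 to 0.19, adjusted p = 0.67). Flt1, the gene of the decoy-like receptor VEGFR1, stood at 13.25, 13.20 and 13.48 and at 13.13, 12.84 and 13.78 (-0.06, 95% interval from -0.61 to 0.48, adjusted p = 0.92). For both genes the DC101 arrays spanned the healthy range. Of the 10 genes for VEGF ligands, receptors and co-receptors only Nrp2, a co-receptor of venous and lymphatic endothelium, was called, rising from 10.88, 10.65 and 10.41 to 11.81, 12.07 and 11.97 (1.30, SE 0.15, adjusted p = 0.0075). Pgf, the placental growth factor gene, changed by 1.05 (SE 0.23, adjusted p = 0.073) and Vegfa by -0.19 (SE 0.21). Of 24 early VEGF response genes, Myc and the signalling inhibitor gene Spry1 (0.87) rose and Spry2, its relative, fell by 0.56. Myc was the single call of the list without DC101 replicate 1 or healthy replicate 1 or 3.

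Genes of tip cells and sprouting stood between the healthy and the IgG levels in several cases. Lamb1, a laminin beta chain, was at 9.71, 9.45 and 9.36 in healthy arrays, at 11.91, 12.02 and 11.83 with IgG and at 10.32, 11 and 11.07 with DC101. The 3 groups did not overlap for Lamb1. It rose by 1.29 over healthy with DC101 (SE 0.21, adjusted p = 0.028), and the direct difference from IgG was -1.12 (95% interval from -1.59 to -0.65, adjusted p = 0.74). Its other probe sets changed by 0.97, 0.41 and 0.19 over healthy without passing. The call on Lamb1 was kept in 1 of the 6 fits that left out 1 array. Nid2, nidogen 2 of the basement membrane, which the study used as a VEGF target gene, was at 7.65, 8.00 and 7.09 in healthy arrays, 8.15, 8.603 and 8.52 with IgG and 7.75, 7.87 and 7.38 with DC101. Its DC101 arrays lay inside the healthy range, with a change of 0.08 (95% interval from -0.49 to 0.65), and their difference from the IgG arrays of -0.76 (95% interval from -1.17 to -0.35) did not pass the adjusted test (adjusted p = 0.74). Mest, an imprinted gene used likewise, was at 11.28, 11.38 and 11.33 in healthy arrays and at 11.44, 12.22 and 11.85 with DC101 (0.51, SE 0.19, adjusted p = 0.24), against 12.18, 12.19 and 12.09 with IgG. One DC101 array of Mest was near the healthy values and another at the IgG level. Esm1 and Apln, secreted products of tip cells, changed by -0.43 (SE 0.29, adjusted p = 0.51) and 0.76 (SE 0.23, adjusted p = 0.16), and Angpt2, which destabilises vessels, by 0.38 (SE 0.28, adjusted p = 0.56).

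Of 28 sprouting genes, 4 were called higher (14.3%, against 1.58% of all genes) and 0 lower with DC101, and 14 were called with IgG. Besides Lamb1 they were Trp53i11, a gene enriched in tip cells (2.01, SE 0.20), Adm, the vasodilator adrenomedullin (1.18, SE 0.20), and Fscn1, the actin bundler of cell protrusions (1.14, SE 0.13). The count was 2 without DC101 replicate 2 or healthy replicate 1 or 2. The list median was 0.32 with DC101 and 0.48 with IgG over the same healthy arrays. DC101 replicate 1 held the lowest value of its group for 19 of the 28 members, where it was the lowest for 5308 of all genes, and its median member stood 0.21 above the healthy mean, against 0.45 and 0.35 in replicates 2 and 3. The antibody arrays thus varied in their sprouting genes, and another array than for the mitosis genes was the lowest.

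**Figure D4:**
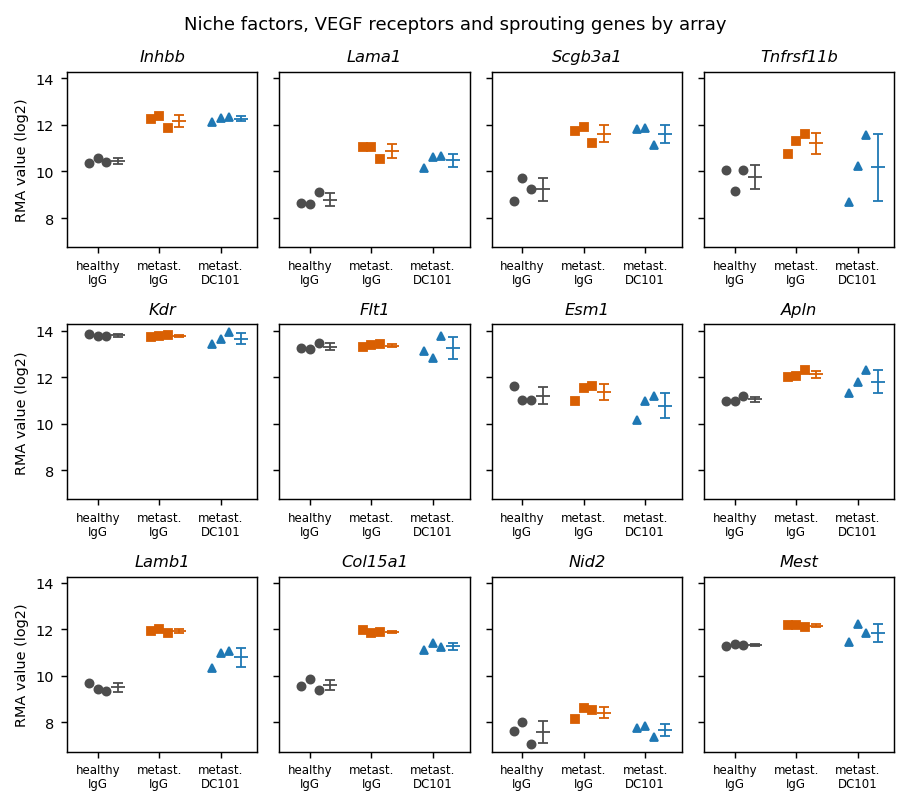
RMA values (log2, vertical axis) of niche factor, VEGF receptor and sprouting genes in healthy, IgG-treated metastatic and DC101-treated metastatic ECs, where symbols are single arrays and the dash with its bar is the group mean ± SD (n = 3). Inhbb, Lama1 and Scgb3a1 lie above healthy in every DC101 array, Kdr and Flt1 overlap in all groups, and Nid2 with DC101 lies within the healthy range.

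Some genes of the basement membrane and of the fibrillar matrix rose. In the basement membrane list, Col15a1, a collagen that links basement membranes to the fibrils beneath, rose from 9.57, 9.85 and 9.39 to 11.12, 11.43 and 11.25 (change 1.66, SE 0.15, adjusted p = 0.0031). Its IgG arrays stood at 11.95, 11.83 and 11.88, and the direct difference from them was -0.62 (95% interval from -0.89 to -0.34, adjusted p = 0.74). The endostatin precursor gene Col18a1 rose by 1.38, Col4a5 by 0.94 and Lamc1 by 0.55, while Col4a1 and Col4a2, the main collagen chains of vascular basement membrane, changed by 0.24 (SE 0.10, adjusted p = 0.26) and 0.45 (SE 0.11, adjusted p = 0.090). Together with Lama1 and Lamb1 these made 6 calls among 24 genes (25%, against 2.42% of all genes), at a median of 0.22. That count was 2 without healthy replicate 1 or 2 and 3 without healthy replicate 3.

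Of 27 matricellular and fibrillar genes, 11 were called higher (40.7%, against 1.58% of all genes) and 0 lower, at a median of 0.72. Fn1, fibronectin, rose from 10.36, 10.46 and 10.67 to 12.29, 12.26 and 12.49 (1.85, SE 0.12, adjusted p = 0.0011), and Tnc, tenascin C, from 6.53, 7.12 and 6.76 to 8.63, 8.72 and 9.01 (1.98, SE 0.18, adjusted p = 0.0031). Col1a1, a chain of type I collagen, rose from 9.86, 10.57 and 10.41 to 12.37, 11.99 and 12.58 (2.03, SE 0.22, adjusted p = 0.0067). No DC101 array overlapped a healthy array for these genes, as for every called gene. Tgfbi rose by 2.11, Vcan, a large proteoglycan, by 1.59, Col6a1 by 1.51, Col1a2 by 1.36, Col3a1 by 1.04 and Ccn2, a target of TGF-beta and YAP, by 0.85. The count was 6 without DC101 replicate 1, 5 without healthy replicate 1 and 7 without healthy replicate 3. With IgG, 12 were called at the same median of 0.72, and the direct differences had a median of 0.07. Adamts4, a protease of proteoglycans, rose by 1.94 and was, with Timp1, the only call among 19 proteases and inhibitors.

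Hypoxia genes and the TGF-beta family changed in both directions. Ankrd37, a target of hypoxia-inducible factors, rose from 10.99, 10.82 and 10.49 to 12.20, 12.86 and 12.82 (1.86, SE 0.21, adjusted p = 0.0081), and Ndrg1, a stress-responsive gene, from 12.05, 12.08 and 11.97 to 13.10, 13.25 and 13.16 (1.14, SE 0.10, adjusted p = 0.0030). The mitophagy gene Bnip3 rose by 0.70 and the pyruvate kinase gene Pkm by 0.60, whereas Hilpda, a lipid droplet protein gene that hypoxia induces, fell by 0.65, and the glycolysis genes Ldha and Pgk1 changed by 0.07 (SE 0.13) and 0.24 (SE 0.12). With Adm, 5 of 26 members were called higher and 1 lower (23.1% together, against 2.42% of all genes). Without any single array, 2 or 3 were called. The hypoxia response element, ACGTG on either strand, was found in 20 of 25 tabulated promoters of the list (80%). The share was 21.8% of all genes with a promoter and 26.1% of those measured here. In the activin, TGF-beta and BMP list, Inhbb, Inhba, the activin A subunit gene (1.62), and Ltbp2, a matrix protein related to TGF-beta binding proteins (0.84), rose. Id2 and Id3, which BMP signalling induces, fell by 0.99 and 0.60, Smad6, an inhibitor induced by the same pathway, by 0.62 and Ltbp4, which binds latent TGF-beta, by 0.67. These 7 calls of 30 (23.3%) fell to 1 or 2 without any single array, and Inhbb was the call that remained in each.

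The decreases were smaller than the increases. Ppp2r2c, a regulatory subunit gene of the phosphatase PP2A, fell from 10.31, 9.73 and 9.75 to 8.34, 7.64 and 7.05 (-2.25, SE 0.32, 4.76-fold lower, adjusted p = 0.019). Its other probe sets changed by -0.90 and -0.03, and its call was kept in 2 of the 6 fits that left out 1 array. Actc1, cardiac alpha-actin, fell from 9.25, 9.47 and 9.61 to 6.96, 7.28 and 7.51 (-2.19, SE 0.17, adjusted p = 0.0018). Scara5, a scavenger receptor that takes up ferritin, fell from 7.81, 8.19 and 9.002 to 6.23, 6.36 and 6.80 (-1.87, SE 0.30, adjusted p = 0.027). The other probe set of Scara5 changed by -0.01, and the call was kept in 3 of the 6 such fits. Gsn, the actin-severing protein gelsolin, fell from 12.34, 12.36 and 12.38 to 10.56, 10.89 and 10.18 (-1.82, SE 0.18, 3.53-fold lower, adjusted p = 0.0045). The rule that selected these genes required that the groups did not overlap. On 3 further probe sets Gsn changed by -1.76 to -1.83. Its others, at 7.17 and 7.63 on average, changed by -0.08 and 0.10. Hpcal4, a neuronal calcium sensor, followed with -1.62, Cmklr1, the chemerin receptor, with -1.58, the kinesin gene Kif26b with -1.47 and Crispld1 with -1.38. Further down were Mettl7a1 (-1.33), the hormone gene Stc1 (-1.32) and Lrat, which stores retinol as esters (-1.29). Calls on Hpcal4, Cmklr1, Stc1 and Crispld1 were kept in 1, 2, 2 and 5 of the 6 such fits. On its other probe set Stc1 changed by -0.12.

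Tslp, an epithelial-type cytokine gene of allergic inflammation, fell from 9.17, 8.86 and 9.04 in healthy arrays to 8.04, 7.62 and 7.40 with DC101 (-1.33, SE 0.18, adjusted p = 0.015). Its IgG arrays stood at 8.88, 8.37 and 8.56, overlapping the healthy arrays and above every DC101 array, with a change of -0.42 from healthy (adjusted p = 0.17). The direct difference of DC101 from IgG was -0.92 (95% interval from -1.38 to -0.45, adjusted p = 0.74). The DC101 change of Tslp thus passed while its IgG change did not, and the difference between the antibodies did not pass either. Its call was kept in 3 of the 6 limma fits that left out 1 array (highest adjusted p = 0.076). Slc5a12, also selected among the largest decreases, changed by -1.497 with DC101 (limma adjusted p = 0.038) and by -1.455 with IgG (adjusted p = 0.053). Its call was kept in 1 of those fits.

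The remaining genes among the 14 selected as largest increases had varied roles. Clca3a1, a secreted protein of the CLCA family with close copies, rose from 8.03, 8.33 and 8.41 to 11.83, 11.34 and 11.42 (3.27, SE 0.17, adjusted p = 0.00066), and its IgG arrays stood at 11.12, 11.33 and 10.97. Akr1b8, an aldo-keto reductase with close relatives, rose by 3.13, with values of 6.82, 8.68 and 6.73 in healthy arrays and 10.28, 10.71 and 10.63 with DC101. Ildr2, a membrane protein of the immunoglobulin superfamily, rose by 2.93 and Ntrk2, the neurotrophin receptor TrkB, by 2.87. Some of the other Ntrk2 probe sets changed by 2.93 and 2.80, and the rest by 0.15 to 0.55 without passing. The call on Akr1b8 was kept in 1 and that on Ntrk2 in 4 of the 6 fits that left out 1 array. The rule that selected these genes required that healthy and DC101 arrays did not overlap.

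Markers of endothelial subtypes and of other cells were measured beside these changes. Of 16 lymphatic markers, 4 were called higher (25%, against 1.58% of all genes), at a median of 0.69. They were the gap junction gene Gja1 (1.24), Nrp2, Nts (0.84) and Tbx1 (0.81). The lymphatic identity factor Prox1 changed by 1.79 (SE 0.55, adjusted p = 0.16) and Lyve1 by -0.01, and the number of calls was 1 without DC101 replicate 1 or 3 or healthy replicate 1 or 2 and 2 without healthy replicate 3. In bulk samples, a larger share of a cell type and more RNA per cell cannot be told apart. Ackr1, the venous chemokine-binding receptor, rose from 9.17, 9.34 and 8.84 to 10.61, 10.76 and 11.03 (1.69, SE 0.17, adjusted p = 0.0048). Of 18 arterial markers, Fbln5 (0.72) and Mgp (0.69), both matrix proteins, rose and Bmx (-0.77) and Ltbp4 (-0.67) fell, at a median of -0.28. Among 15 aerocyte markers Ednrb (-0.49) and Rprml (-0.95) fell and Cyp1b1 (0.93) rose. The median of that list was -0.21, and 2 of its changes were positive. Among 16 general capillary markers Wif1 (-0.99) and Hilpda fell, at a median of -0.10 with 4 positive changes. The aerocyte, general capillary and arterial lists kept at most 1 call each without any single array. Car4, the defining carbonic anhydrase of aerocytes, changed by -0.23 (SE 0.10, adjusted p = 0.29).

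Markers of cells that the sort should remove were measured as well. Among 12 platelet and erythrocyte genes, Tubb1 (-1.52), Ppbp (-1.20) and Pf4 (-0.99), all of platelets, fell, and the list's summed level was 12.50 to 12.56 in healthy and 11.74 to 11.97 in DC101 arrays. Those calls were reduced to 1 without DC101 replicate 1 and to 0 without any 1 healthy array. The macrophage list had a summed level of 14.38 to 14.69 in healthy and 14.15 to 14.71 in DC101 arrays. Its only call of 20 was Spi1, a myeloid transcription factor, which fell from 8.79, 8.83 and 8.98 to 7.83, 7.85 and 7.90 (-1.01, SE 0.10, adjusted p = 0.0053). Neither 13 neutrophil genes nor 17 lymphocyte, mast cell and common leukocyte genes held a call by limma, with 3 and 2 at an unadjusted p under 0.05. Ptprc, which encodes the sorting antigen CD45, changed by -0.76 (SE 0.20, adjusted p = 0.12). Of 20 lung epithelial genes, 0 were called by limma (6 at an unadjusted p under 0.05), at a median of -0.37, and Sftpc, surfactant protein C, stood at 12.56 ± 0.76 with DC101 and 13.03 ± 0.22 in healthy arrays (SD, n = 3 per group). The DC101 arrays differed in this list, with medians of -0.42, 0.22 and -0.75 from the healthy mean. In the fibroblast and mural list, the collagen genes Col1a1, Col1a2 and Col3a1 rose while Inmt (-1.06) and Pi16 (-0.65) fell, and Pdgfra and Pdgfrb, whose products were used to gate fibroblasts out, changed by -0.49 (SE 0.15, adjusted p = 0.15) and 0.04 (SE 0.15). The number of calls was 1 without healthy replicate 1 and 3 without DC101 replicate 1 or 3 or healthy replicate 2 or 3. The list's summed level was 15.18 to 15.36 in healthy and 15.41 to 15.57 in DC101 arrays, and its median change was -0.26. In DC101 replicate 3, mesothelial genes had a median of 1.09 above the healthy mean, against -0.20 and -0.06 in replicates 1 and 2. Wt1, a mesothelial and angiogenic transcription factor, was the only call of 8 (1.35, SE 0.22), with 7.68, 7.95 and 7.91 in the DC101 arrays against 6.97, 6.45 and 6.08 in healthy ones, and its call was kept only without healthy replicate 1. The part of these other cells in the results was not tested.

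Several vascular programmes showed no call by limma. With 2.42% of all genes called, lists of this size can hold 0 calls without differing from the background. In the Notch list 0 of 16 genes were called (4 at an unadjusted p under 0.05). The median change was -0.22, and 3 of the 16 changes were positive. Hes1 changed by -0.54 (SE 0.14, adjusted p = 0.105) and the ligand gene Dll4 by -0.29 (SE 0.13, adjusted p = 0.32). In the junction and barrier list 0 of 17 were called (1 at an unadjusted p under 0.05), and the tight junction gene Cldn5 changed by -0.23 (SE 0.09, adjusted p = 0.27). Among the angiopoietin and Tie genes 0 of 7 were called (2 at an unadjusted p under 0.05), with Tek, the Tie2 receptor gene, at -0.35 (SE 0.10, adjusted p = 0.15). The cholesterol synthesis, lipid handling and glucocorticoid lists held 0 calls among 16, 16 and 18 genes (1, 3 and 4 at an unadjusted p under 0.05). In the glucocorticoid list the DC101 arrays differed, with medians of 0.64, -0.07 and 0.01 from the healthy mean.

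**Figure D5:**
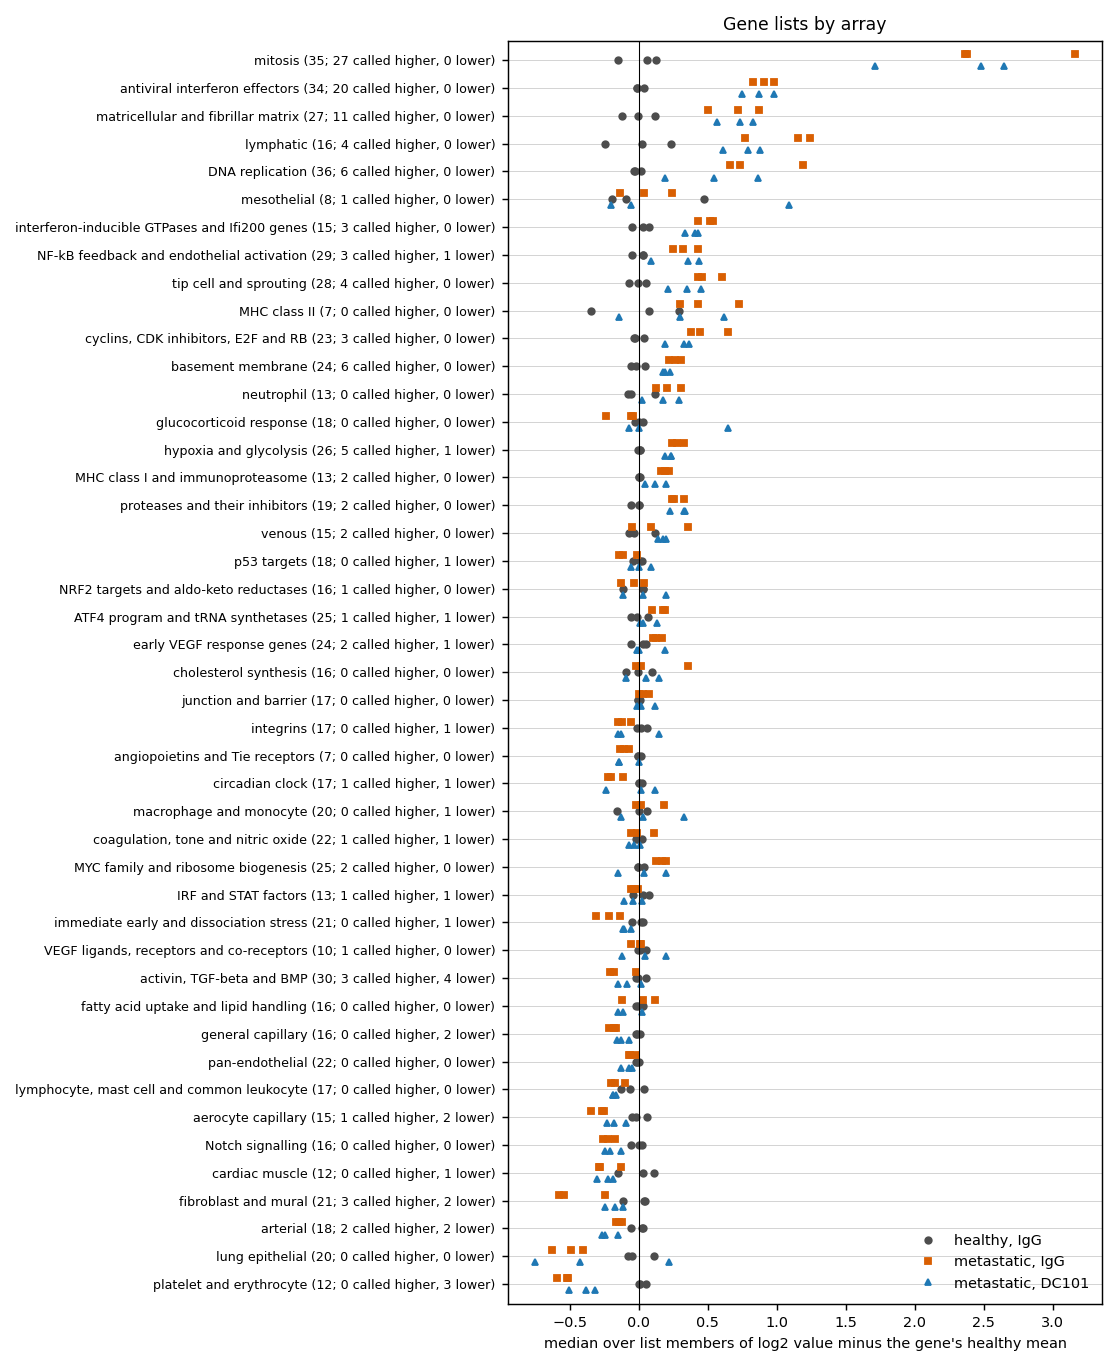
Median over the members of each gene list of the log2 value minus the gene's healthy mean (horizontal axis), with 1 symbol per array for healthy, IgG-treated metastatic and DC101-treated metastatic ECs. Labels give the number of measured genes and how many were called higher and lower with DC101 against healthy. Among the pathway and marker lists drawn, the mitosis list lies highest, at 1.72 to 2.65 in the DC101 arrays, and the antiviral list lies at 0.75 to 0.98.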

How the data were processed

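Expression was measured in sorted lung ECs on Affymetrix whole-genome mouse arrays, 3 per group. The study isolated RNA with a PicoPure kit, labelled it with a 3-prime IVT Pico kit and normalized the arrays by RMA. The deposited table holds values on a log2 scale for 45101 probe sets in 9 columns, with column medians of 8.325 to 8.326. The log base is not named in the table and was taken as that of RMA output, log2. RMA equalises the arrays, so a change in total RNA cannot be seen, and changes near the lower end of the scale are understated. The number of arrays limits the precision.

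Probe sets were named through the platform annotation: 34945 had a single gene symbol, 932 had several, 9160 had none and 64 were controls. Only single-symbol probe sets were used, and 34741 of them matched RefSeq genes. Of 18193 genes, 9010 had several probe sets, and the one with the highest mean across all arrays was used. Each comparison was fitted on its own 6 arrays with lmFit and eBayes in limma 3.58.1 (R 4.3.3), with Benjamini-Hochberg adjustment over all genes and a threshold of 0.05. The steps were tested on simulated data. The comparisons against healthy arrays share those arrays. A list is described by its count of calls and its median, and its summed level is the log2 of the summed linear values of its members.

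The gene lists and the selection of genes were chosen with earlier results of these data known. Genes were selected as the 14 largest called increases and decreases with properly named symbols and no overlap, up to 4 called members per list and direction (the largest change where none was called), and a set of VEGF, niche and marker genes. Further list members are named to show roles, including members that did not pass, and were chosen after their values were seen. Promoter sequences are from RefSeq (GRCm38.p6). Alternatives changed the arrays in the fit, the pairing, the probe set choice, the filter, the variance moderation and the normalization. Prnd was not analysed here.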

Additional observations from a re-analysis of the deposited data

How the results depend on the processing

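The 440 calls of DC101-treated metastatic against healthy ECs kept their sign in all 6 fits that left out 1 array, but the number of calls depended on the arrays and on the spread estimate. Leaving out each array in turn gave 110 to 361 calls, with 92 to 280 higher and 18 to 81 lower, and the lowest numbers came without healthy replicate 1. With all 9 arrays in 1 fit there were 662 calls, 397 higher and 265 lower. Without variance moderation there were 14, with 11 higher and 3 lower. Apart from the replicate block, given separately, the other alternatives gave between 418 and 588 calls. The causes of these shifts were not tested. For IgG-treated metastatic against healthy ECs the number was 1188, 376 without variance moderation and 556 to 759 when each array was left out in turn. The comparison of DC101 with IgG gave 0 calls in limma under every alternative. At the study's thresholds the number was 655, 372 with bright genes only and 399 without variance moderation.

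The labels do not say whether replicate numbers pair the samples. Deviations of same-numbered healthy and DC101 arrays correlated at -0.04, 0.02 and 0.08, which cannot decide whether the samples were paired. With the replicate block there were 247 calls for DC101 against healthy, 203 higher and 44 lower, and 689 for IgG against healthy.

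An alternative chosen after seeing the data took each gene's probe set with the highest healthy mean, which changed the probe set of 452 genes. It gave 418 calls, and Mycn changed by -0.34 (adjusted p = 0.63). Over 15 alternatives, the 129 selected genes gave 1907 comparisons with the reported result, of which 1428 kept direction and side of the threshold, 468 no longer passed, 10 newly passed and 1 reversed. Table values carry no detection calls, so no limit of detection can be given.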

Other observations

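Stress and metabolic programmes outside the main groups held few calls with DC101 against healthy ECs, where 2.42% of all genes were called. Of 25 genes of the ATF4 program and the tRNA synthetases, the mitochondrial folate enzyme gene Mthfd2 rose by 1.18 and Chac1, which degrades glutathione, fell by 0.66. Of 16 NRF2 targets and aldo-keto reductases only Akr1b8 was called. Of 18 p53 targets only Bbc3, the proapoptotic gene PUMA, was called and fell by 0.87. Of 17 clock genes, Bhlhe40 rose by 0.54 and Nfil3 fell by 0.59, and of 21 immediate early and dissociation genes only Ier2 was called and fell by 0.67. Each of the calls on Chac1, Bhlhe40, Nfil3 and Ier2 was lost in all 6 fits that left out 1 array.

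Among 17 integrin genes only Itgb7, a leukocyte integrin chain, was called, with a change of -1.003. Of 22 genes of coagulation, vascular tone and nitric oxide, Adm was called higher and Ednrb lower, at a median of -0.02. Irf7 and Irf1 were the only calls among 13 IRF and STAT genes. Ackr1 and Nrp2 were the 2 calls among 15 venous markers, and both were called in all 6 fits that left out 1 array. Actc1 was the only call among 12 cardiac muscle genes, whose median change was -0.25.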
